A study of Mus musculus with 7 samples.

Results

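The genes described here are those of the circadian clock and its direct outputs, measured by RNA sequencing of the VMHvl (the ventrolateral ventromedial hypothalamus), whose neurons include many with estrogen receptor alpha. They were chosen by name, as rows whose symbol stood on a list of 30 clock gene names, and 28 of the 48321 gene rows matched. The remaining 2 names, Nocturnin and Ccrn4l, are older names of a gene that the files list as Noct, which is given beside the 28 and not counted with them. EB mice were ovariectomized females given 1 µg of estradiol benzoate, an ester of estradiol, under the skin (4 mice), and VEH mice were ovariectomized females given vehicle by the same route (3 mice). All came from a mixed background of 129/Sv lineage that descends from a floxed Esr1 line, tissue was dissected by hand 4 hours after injection, and each library is 1 mouse. The sources used here do not give age, the Esr1 genotype of these mice or the time of day of collection.

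The mammalian clock is a transcriptional feedback loop that runs in most cells. BMAL1 (gene Arntl) pairs with CLOCK or NPAS2 at E-box elements and switches on the Per and Cry genes, whose proteins return to the nucleus and inhibit the pair. A second loop joins the REV-ERB repressors (Nr1d1, Nr1d2) and the ROR activators, which compete for the same elements in Arntl and other genes, and a further loop joins the activators DBP, TEF and HLF to the repressor NFIL3 at D-box elements. In the brain the master clock sits in the suprachiasmatic nucleus (SCN), and the ventromedial hypothalamus is among the regions with rhythms of their own.

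With EB, Npas2 and Nfil3 rose, and no other clock gene passed the test. Npas2 was 1.68-fold and Nfil3 2.28-fold higher with EB. Arntl, the Per genes, Nr1d1, Tef and Hlf had estimates under 1.2-fold in either direction, while Dbp, the D-box activator, was 1.46-fold lower in estimate and not called (unadjusted p = 0.0147, adjusted p = 0.342, edgeR). Because this is bulk tissue, fewer cells of a type and less RNA per cell cannot be told apart. Of the 28 genes, all of which passed the filter on low counts, 2 (7.14%) were called higher, against 0.745% of the 18387 tested genes, and 0 were called lower, against 0.207% of tested genes (edgeR's quasi-likelihood test, Benjamini-Hochberg adjusted p under 0.05). At an unadjusted p under 0.05 there were 5 higher and 2 lower clock genes, 25.0% of the list against 9.04% of tested genes in either direction. DESeq2 called 3 higher and 1 lower, and limma-voom called 0 in each direction. EB and VEH mice did not overlap in 5 of the 28 (17.9%), against 9.1% of tested genes, and 4 of them were higher with EB, against 5.11% of tested genes. The median log2 change was -0.02 over the 28 genes and -0.01 over all tested genes, with 13 clock genes positive and 15 negative.

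**Figure D1:**
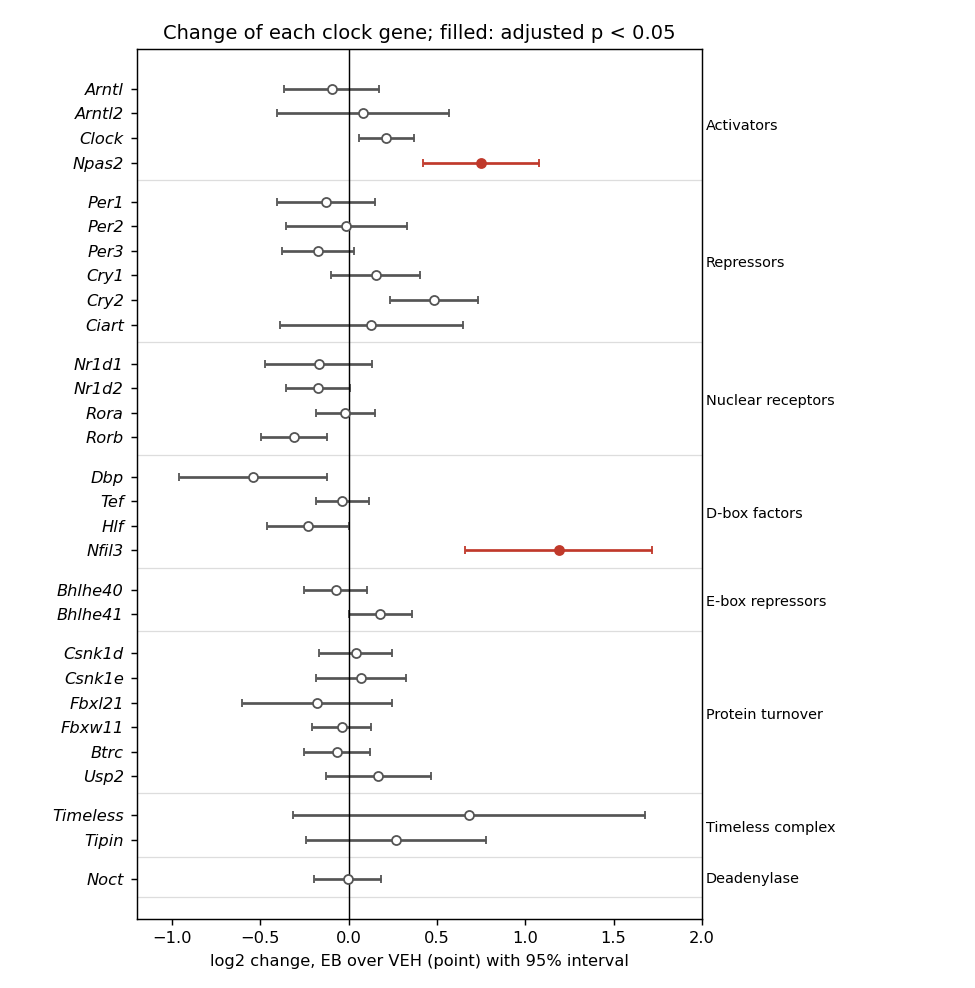
Log2 change (EB over VEH) of the 28 clock genes and Noct, grouped by role, as points with their 95% intervals; filled points passed an adjusted p of 0.05. Npas2 (0.75) and Nfil3 (1.19) are the filled points, and most other intervals include 0.

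The start regions of 3 genes are shown because they carry or lack the elements by which clock genes are usually grouped. Nfil3 and Npas2 are the genes that rose, and Ciart is the member with the most E-boxes. Each is the 300-base window from 250 bases before to 50 bases after a RefSeq start on GRCm38.p6, read along the gene's strand. RefSeq and GENCODE starts can differ. The Npas2 window lies wholly inside the GENCODE span of that gene, which begins at 39193731, so bases before the GENCODE start of Npas2 were not searched. Capitals mark matches to the E-box CACGTG, the D-box (TTATGTAA or TTACGTAA), the ROR and REV-ERB core AGGTCA, the cAMP response element TGACGTCA or the palindromic estrogen response element (ERE), searched on both strands. The 6-base AGGTCA is also a nuclear receptor half-site, so it can overlap the full estrogen element. Nfil3 lies at chr13:52980990-52981289, minus strand, Npas2 at chr1:39194022-39194321, plus strand, and Ciart at chr3:95882179-95882478, minus strand.
Nfil3: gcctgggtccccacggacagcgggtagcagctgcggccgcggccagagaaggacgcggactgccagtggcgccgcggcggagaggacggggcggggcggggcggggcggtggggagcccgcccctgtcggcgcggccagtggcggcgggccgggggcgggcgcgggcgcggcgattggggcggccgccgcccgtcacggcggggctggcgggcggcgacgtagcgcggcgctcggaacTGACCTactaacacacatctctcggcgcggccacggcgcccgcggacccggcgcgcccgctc
Npas2: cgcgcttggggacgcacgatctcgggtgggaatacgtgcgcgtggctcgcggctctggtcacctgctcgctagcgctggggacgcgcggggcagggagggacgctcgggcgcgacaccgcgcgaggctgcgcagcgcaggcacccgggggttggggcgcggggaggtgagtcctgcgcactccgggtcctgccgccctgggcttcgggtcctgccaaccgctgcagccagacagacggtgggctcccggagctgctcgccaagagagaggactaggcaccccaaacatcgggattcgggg
Ciart: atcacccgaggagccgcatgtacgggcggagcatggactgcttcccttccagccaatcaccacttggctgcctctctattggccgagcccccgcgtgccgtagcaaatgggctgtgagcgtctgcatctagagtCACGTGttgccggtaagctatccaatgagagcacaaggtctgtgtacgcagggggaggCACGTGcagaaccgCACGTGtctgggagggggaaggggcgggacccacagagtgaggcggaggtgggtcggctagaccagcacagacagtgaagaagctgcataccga

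The Nfil3 window holds 1 AGGTCA core, on the opposite strand with its first base at -12, in a stretch of 81.7% GC. The Npas2 window holds none of the 5 elements, and the Ciart window holds 3 E-boxes, at -116, -58 and -44. Windows were found for 24 of the 29 genes, 33 windows in all, since a gene can have several starts. E-boxes stood in 6 of the 33 windows, those of Bhlhe41, Ciart, Cry1, Per1 and Tef, against 7.15% of all 32851 RefSeq windows. The D-box stood in 2 of the 33 windows (Per3 and Timeless), against 1.06% of all windows, and the AGGTCA core in 5 (Arntl, Clock, Nfil3, Nr1d2 and Per1), against 16.3%. The cAMP response element was found in 1 window (Hlf), against 1.79% of all windows. The full estrogen response element was in 0 of the 33 and in 0.07% of all windows. These are letter matches in a short window and say nothing of binding or of elements elsewhere.

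Among the activators, Npas2 encodes a PAS-domain partner of BMAL1 and is the paralog of Clock, which can take the place of CLOCK in forebrain. Npas2 (chromosome 1, 39193731 to 39363236, plus strand, GRCm38) had 33.3, 28.8, 38.5 and 39.4 CPM in EB mice 1 to 4, against 16.9, 25.6 and 19.6 CPM in VEH mice 1 to 3. CPM is the count of a gene scaled to library size with TMM (trimmed mean of M-values). Every EB mouse was above every VEH mouse, with EB 2 and VEH 2 closest to each other. The log2 change was 0.75 ± 0.15 (SE; adjusted p = 0.0311, edgeR). It was positive with each library left out (0.61 to 0.94), but the call held only without EB 2 or VEH 2. Without EB 1, EB 3, EB 4, VEH 1 or VEH 3 the adjusted p was 0.0837 to 0.169, and over all alternatives it ran from 1.63e-05 to 0.207.

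Clock itself, the more abundant paralog, had 254, 251, 295 and 247 CPM in EB mice, against 232, 226 and 218 CPM in VEH mice. The groups did not overlap, yet the estimate was small and missed the threshold (log2 0.21 ± 0.07, 1.16-fold, adjusted p = 0.296, edgeR). Per kilobase of annotated exon, Npas2 stood at 7.31 ± 1.03 CPM per kb in EB mice and 4.32 ± 0.934 in VEH mice (SD, n = 4 and 3), which placed it 14th among the 29 genes in EB mice and 20th in VEH mice. Clock stood at 19.1 ± 1.62 CPM per kb in EB mice and 16.4 ± 0.510 in VEH mice. Within a mouse, Npas2 counts were 13.1%, 11.5%, 13.1% and 16.0% of Clock counts in EB mice 1 to 4, against 7.26%, 11.3% and 8.996% in VEH mice 1 to 3. These shares separate the groups by a narrow margin, between EB 2 and VEH 2.

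Arntl, the obligate partner of both, had 20.5, 22.8, 19.6 and 18.9 CPM in EB mice, against 18.8, 22.9 and 24.0 CPM in VEH mice. These ranges overlap, and the 95% interval of the log2 change ran from -0.36 to 0.17. Arntl2, a second BMAL protein, was low in both groups, at 6.47 ± 1.81 CPM in EB mice and 6.07 ± 0.674 CPM in VEH mice (SD).

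**Figure D2:**
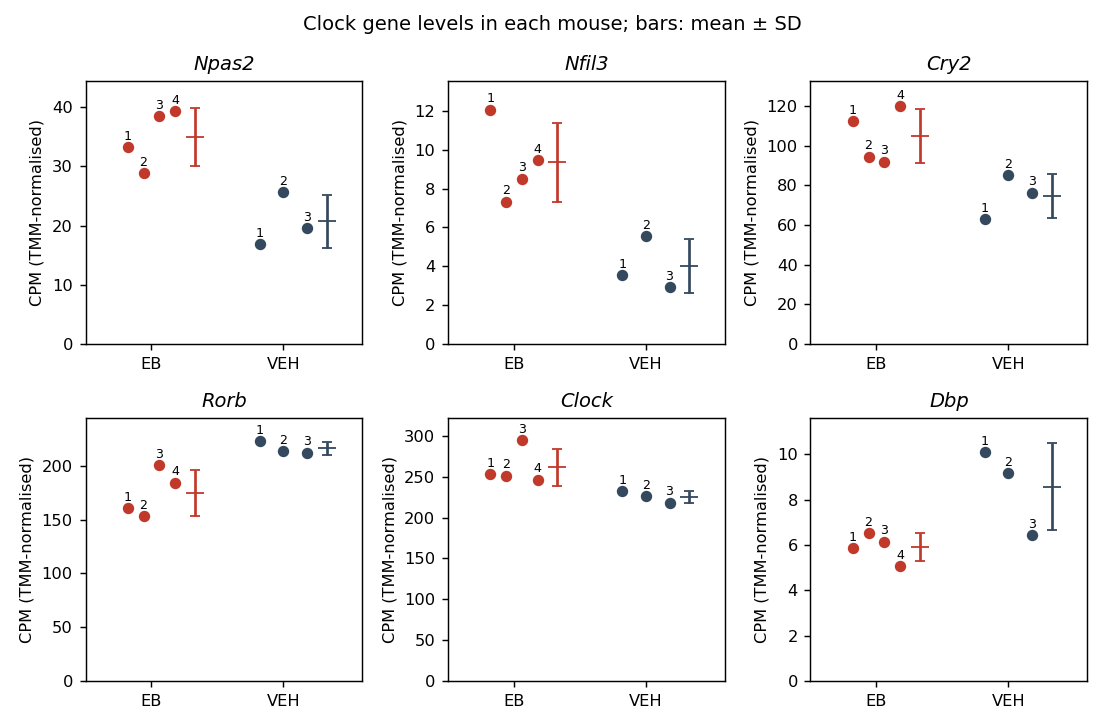
TMM-normalised CPM of 6 clock genes in each mouse (numbered points) with mean ± SD, EB on the left and VEH on the right of each panel. Npas2, Nfil3, Cry2 and Clock are higher in every EB mouse than in any VEH mouse, Rorb is lower in every EB mouse, and Dbp overlaps through VEH 3 (6.43 CPM).

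Nfil3 (also called E4BP4) is a basic leucine zipper repressor that binds the D-box and opposes DBP, TEF and HLF there. Nfil3 (chromosome 13, 52967209 to 52981073, minus strand) had 12.1, 7.33, 8.51 and 9.47 CPM in EB mice 1 to 4, against 3.54, 5.57 and 2.95 CPM in VEH mice 1 to 3. Every EB mouse exceeded every VEH mouse, and EB 1 was the highest. The counts behind these values were 369, 238, 202 and 230 in EB mice and 91, 176 and 67 in VEH mice. The log2 change was 1.19 ± 0.25 (SE; adjusted p = 0.0367, edgeR). It stayed between 1.02 and 1.52 with any 1 library left out. The call held only without EB 2 or VEH 2, and without EB 1, EB 3, EB 4, VEH 1 or VEH 3 the adjusted p was 0.0655 to 0.179. Over all alternatives it ran from 2.80e-05 to 0.184.

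The activators that share the D-box with NFIL3 had estimates at or below 0. Dbp had 5.85, 6.53, 6.15 and 5.06 CPM in EB mice, against 10.1, 9.19 and 6.43 CPM in VEH mice. VEH 3 lies among the EB mice, and Dbp did not pass (log2 -0.54 ± 0.19, unadjusted p = 0.0147, adjusted p = 0.342, edgeR). Hlf was at 130 ± 11.7 CPM in EB mice and 153 ± 26.9 CPM in VEH mice, where VEH 1 alone reached 184 CPM (log2 -0.23, 95% interval -0.46 to 0.00). Tef was at 160.3 ± 5.80 CPM in EB mice and 164 ± 12.4 CPM in VEH mice (95% interval -0.19 to 0.12). Set against Dbp in the same mouse, the ratio of Nfil3 to Dbp counts was 2.06, 1.12, 1.38 and 1.87 in EB mice, against 0.350, 0.607 and 0.459 in VEH mice. Nfil3 counts thus exceeded Dbp counts in every EB mouse and were below them in every VEH mouse, without correction for exon length. They stayed far below those of the more abundant Tef and Hlf. Nfil3 was at 4.5% to 7.5% of Tef counts in EB mice and 1.9% to 3.2% in VEH mice. Against Hlf the shares were 5.8% to 10.3% in EB mice and 1.9% to 4.1% in VEH mice.

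Among the inhibitors of CLOCK and BMAL1, Cry2 had the largest estimate. Cry2, a cryptochrome that enters the nucleus with the PER proteins, had 112, 94.4, 91.9 and 119.8 CPM in EB mice, against 63.0, 85.0 and 76.3 CPM in VEH mice. The groups did not overlap, but Cry2 missed the threshold over all genes (1.40-fold, log2 0.48 ± 0.12, adjusted p = 0.0941, edgeR). DESeq2 called it (adjusted p = 0.00438), as did the fit without VEH 2 (0.0434), and over all alternatives the adjusted p ran from 0.000486 to 0.389. Its paralog Cry1 had 23.8, 28.2, 21.6 and 26.3 CPM in EB mice, against 22.4, 22.9 and 22.1 CPM in VEH mice, and these ranges overlap (95% interval of the log2 change -0.10 to 0.40). Whether the 2 paralogs differed in response was not tested.

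The Period genes, the other arm of the inhibitor complex, gave overlapping groups. Per1, which also responds to cAMP and to light in the SCN, had 14.7, 14.5, 16.6 and 15.9 CPM in EB mice, against 17.8, 14.7 and 18.1 CPM in VEH mice (log2 -0.13, 95% interval -0.41 to 0.15). Per2 had 25.3, 29.5, 20.7 and 33.5 CPM in EB mice, against 27.6, 31.8 and 22.9 CPM in VEH mice (log2 -0.01, 95% interval -0.35 to 0.33). Mice of the same group differed more in Per2 than the group means did. Per3 was at 52.2 ± 5.39 CPM in EB mice and 58.8 ± 2.60 CPM in VEH mice (95% interval -0.38 to 0.03). Ciart, a repressor also called CHRONO, was at 4.57 ± 0.402 CPM in EB mice and 4.13 ± 1.33 CPM in VEH mice, where VEH 2 alone had 5.67 CPM.

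In the second loop, the nuclear receptor Rorb was lower in every EB mouse. Rorb, the ROR family member expressed mainly in brain and retina, had 161, 154, 201 and 185 CPM in EB mice, against 223, 214 and 212 CPM in VEH mice. The log2 change was -0.31 ± 0.09, which edgeR did not call (adjusted p = 0.169). DESeq2 gave an adjusted p of 0.0374, within a range from 0.0151 to 0.571 over all alternatives. Rora was at 174 ± 12.5 CPM in EB mice and 176 ± 14.6 CPM in VEH mice (95% interval -0.19 to 0.15). Nr1d1, the heme-binding repressor REV-ERB alpha, had 36.4, 34.2, 44.1 and 32.97 CPM in EB mice, against 42.7, 49.1 and 32.5 CPM in VEH mice. Nr1d2, REV-ERB beta, had 104, 100.4, 108 and 95.2 CPM in EB mice, against 119.6, 124 and 101.1 CPM in VEH mice. VEH 3 was below the EB mice in Nr1d1 and among them in Nr1d2, and the 95% intervals ran from -0.47 to 0.13 for Nr1d1 and from -0.35 to 0.01 for Nr1d2.

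**Figure D3:**
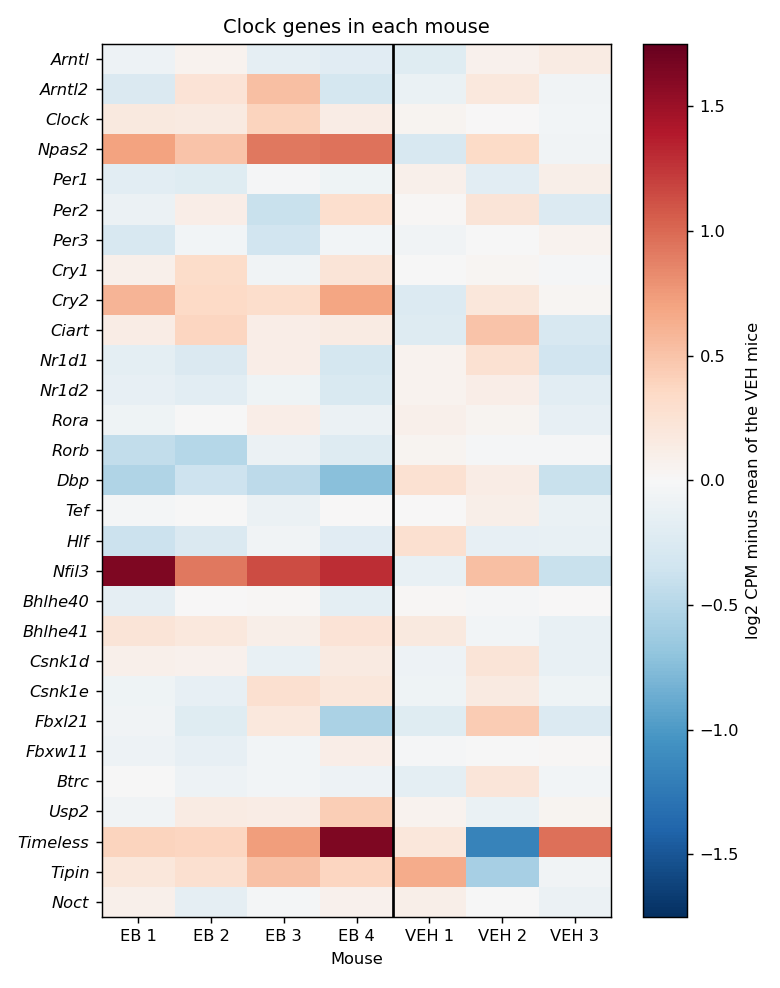
Log2 CPM of each clock gene in each mouse minus the mean of the VEH mice (red higher, blue lower), EB mice left of the line and VEH mice right of it. Npas2, Nfil3, Cry2 and Timeless are among the genes red in all 4 EB mice, and VEH 2 is also red in Npas2, Nfil3 and Cry2. Per2 and Nr1d1 change sign within each group, and Timeless does so among VEH mice.

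Bhlhe40 and Bhlhe41, the DEC repressors that compete at E-boxes, had small differences. Bhlhe41 was at 129 ± 5.62 CPM in EB mice and 114 ± 12.8 CPM in VEH mice, where VEH 1 had 128 CPM and overlapped the EB mice (log2 0.18 ± 0.08, unadjusted p = 0.0464, adjusted p = 0.543, edgeR). Bhlhe40 was at 61.3 ± 4.20 CPM in EB mice and 64.5 ± 0.783 CPM in VEH mice. The enzymes that set the stability of PER and CRY proteins also gave overlapping groups. Casein kinase 1 delta (Csnk1d) was at 130 ± 10.9 CPM in EB mice and 126 ± 17.5 CPM in VEH mice, and casein kinase 1 epsilon (Csnk1e) at 45.4 ± 6.53 CPM in EB mice and 43.1 ± 4.03 CPM in VEH mice. The F-box genes Btrc, Fbxw11 and Fbxl21 and the deubiquitinase gene Usp2 had log2 changes of -0.07, -0.04, -0.18 and 0.17. Timeless was the lowest gene of the list, with 57, 60, 56 and 107 counts in EB mice and 42, 20 and 63 counts in VEH mice, and its interval (-0.32 to 1.68) allows a large change. Its partner Tipin was at 10.2 ± 0.952 CPM in EB mice and 8.53 ± 3.66 CPM in VEH mice. Noct, a rhythmic phosphatase gene first described as a deadenylase, was at 67.4 ± 5.29 CPM in EB mice and 67.6 ± 4.68 CPM in VEH mice.

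For most of the loop these intervals set an upper bound on the difference between EB and VEH mice 4 hours after injection. This was the only time sampled, so rhythms over the day were not measured. The 95% interval lay wholly within 1.5-fold in either direction for 20 of the 28 genes, against 49.0% of all tested genes. The genes outside that bound were Npas2, Nfil3, Cry2, Dbp, Ciart, Fbxl21, Timeless and Tipin.

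A list of 40 accessory clock names, covering kinases, ubiquitin ligases, chromatin and coactivator genes, had 39 rows, all tested. EdgeR called 0 of them in either direction, and 4 (10.3%, against 9.04% of tested genes) had an unadjusted p under 0.05. DESeq2 called 1 and limma-voom 0, and the median log2 change was 0.03. The smallest p among them belonged to Sik1, a salt-inducible kinase that limits clock resetting by light, with 13.98, 12.3, 13.1 and 11.9 CPM in EB mice, against 9.13, 9.22 and 6.34 CPM in VEH mice. Its log2 change was 0.63 (adjusted p = 0.135, edgeR, and 0.0238 by DESeq2, the lowest of its alternatives, which reached 0.386). Next came Prkaa2, a catalytic subunit of AMP-activated kinase (-0.32, adjusted p = 0.277), and Parp1 (0.25, adjusted p = 0.458).

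Of 26 tested genes on a list of rhythmic outputs, 1 (3.85%) rose and 0 fell by edgeR, against 0.745% and 0.207% of tested genes. At an unadjusted p under 0.05 there were 5 (19.2%, against 9.04% of tested genes), 3 higher and 2 lower. DESeq2 called 1 higher and 1 lower, and limma-voom 0. The gene that rose was Fkbp5, a glucocorticoid receptor cochaperone, at 39.3 ± 10.6 CPM in EB mice and 21.4 ± 0.708 CPM in VEH mice (log2 0.88 ± 0.17, adjusted p = 0.0242). Its call ended without EB 1, VEH 1, VEH 2 or VEH 3 (adjusted p = 0.0630 to 0.141), and over all alternatives the adjusted p ran from 1.61e-06 to 0.195. Klf10, a zinc-finger gene driven by the clock in liver, had the opposite sign, with 6.73, 5.70, 6.61 and 7.28 CPM in EB mice, against 12.01, 10.04 and 8.76 CPM in VEH mice. The groups did not overlap, but Klf10 was not called by edgeR (log2 -0.65, adjusted p = 0.138). DESeq2 called it (0.0353, the lowest of its alternatives, which reached 0.435). Coq10b was higher in every EB mouse, with 16.6, 16.9, 16.6 and 14.2 CPM, against 13.9, 8.33 and 10.3 CPM in VEH mice. Its log2 change was 0.57 (adjusted p = 0.210, edgeR), and over all alternatives the adjusted p ran from 0.0397 to 0.4725.

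**Figure D4:**
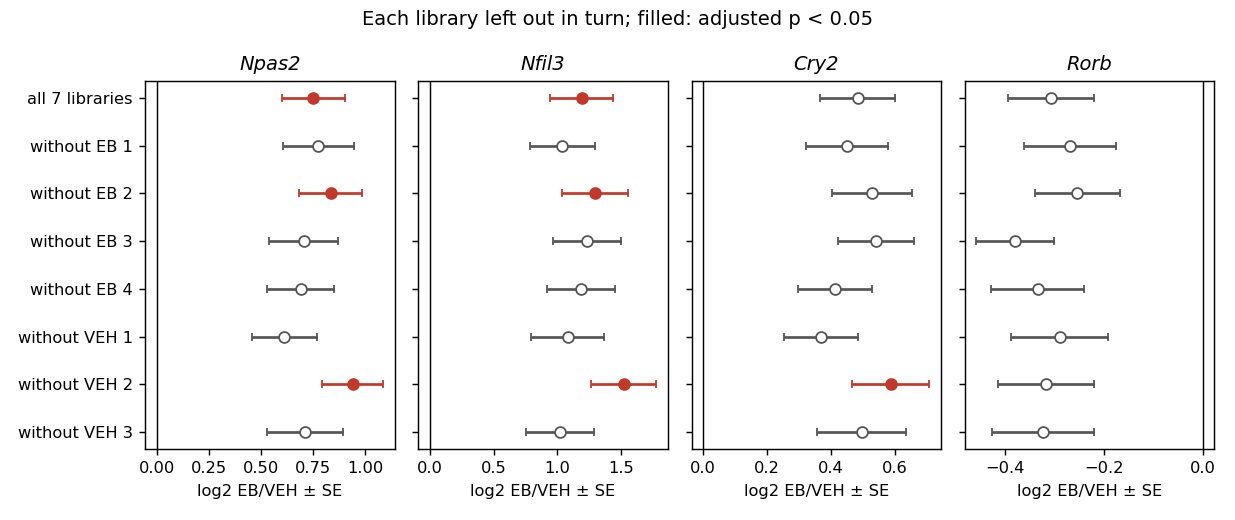
Log2 change (EB over VEH) ± SE of 4 clock genes with all 7 libraries and with each library left out, on a separate axis for each gene; filled points passed an adjusted p of 0.05. Every estimate keeps its sign, and Npas2 and Nfil3 stay filled only without EB 2 or VEH 2.

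Library totals were 22311424 to 33302293 counts in EB mice and 21037303 to 30909554 in VEH mice, and mitochondrially encoded genes took 10.2% to 22.3% of counts in EB mice and 10.9% to 28.8% in VEH mice, highest in VEH 1. Markers of the VMH were present, with Fezf1 at 128 CPM, Adcyap1 at 144 CPM and Esr1 at 192 CPM in EB mice, and 140, 170 and 223 CPM in VEH mice, while Nr5a1, a defining VMH gene, was low at 2.52 CPM in EB mice and 2.03 CPM in VEH mice. These are means, and Esr1 varied between mice, at 198, 160, 231 and 180 CPM in EB mice, against 183, 317 and 169 CPM in VEH mice. EdgeR called 0 of the 10 VMH markers, and 3 (30%, against 9.04% of tested genes) had an unadjusted p under 0.05. Of these, Slc17a6 was higher in every EB mouse (633 against 500 CPM on average), and Adcyap1 and Nkx2-1 had lower estimates with EB. Of 15 SCN markers 13 were tested and edgeR, DESeq2 and limma-voom each called 0. By edgeR 2 (15.4%, against 9.04% of tested genes) had an unadjusted p under 0.05. Lhx1, at 1 to 26 counts a library, had a log2 change of 2.26, and Rgs16 of -0.34. The SCN markers summed to 347.5 to 488 CPM in EB mice and 381 to 670 CPM in VEH mice. None was at 0 in all libraries, and Vip, a defining SCN peptide, averaged 0.922 CPM in EB mice and 0.808 CPM in VEH mice. Within the sum Zfhx3 averaged 208 CPM in EB mice and 228 CPM in VEH mice, and Avp reached 306 CPM in VEH 3. The SCN marker score averages log2 CPM over the 13 markers, each centred on its mean. It was 0.16, 0.18, -0.22 and 0.20 in EB mice 1 to 4, against -0.11, -0.25 and 0.03 in VEH mice 1 to 3. With the SCN marker score as a covariate the log2 change was 0.89 for Npas2 (adjusted p = 0.0414, edgeR) and 1.28 for Nfil3, whose call ended (adjusted p = 0.135). Mural and fibroblast markers summed to 210 to 495 CPM in EB mice and 204 to 855 CPM in VEH mice, highest in VEH 1. All 14 had negative estimates and 0 were called by edgeR, with 0 at an unadjusted p under 0.05. Endothelial markers summed to 199.7 to 257.5 CPM in EB mice and 221 to 317 CPM in VEH mice, again highest in VEH 1. EdgeR called 0 of the 12, but 7 (58.3%, against 9.04% of tested genes) had an unadjusted p under 0.05, 6 of them lower with EB. Flt1 and Tek were lower in every EB mouse than in any VEH mouse (16.7% of the list did not overlap, against 9.1% of tested genes). Astrocyte markers summed to 4992 to 6368 CPM in EB mice and 5771 to 6507 CPM in VEH mice, with 10 of 10 estimates negative and 0 called. The marker called by edgeR was Isl1, on the arcuate list, lower at 29.7 ± 3.79 CPM in EB mice and 67.3 ± 18.2 CPM in VEH mice (log2 -1.18, adjusted p = 0.00249). Most of that list went the other way, with 6 of the 9 tested arcuate markers positive, 3 negative and a median log2 change of 0.29. The part of VMH, endothelial, astrocyte and arcuate markers in the clock gene results was not tested. With the mural and fibroblast score as a covariate Npas2 (0.74) and Nfil3 (1.14) were still called. Pituitary markers summed to 62.0 to 119 CPM in EB mice, highest in EB 4, and 81.1 to 91.6 CPM in VEH mice. With VEH 1 and EB 4 both left out, Npas2 (0.55, adjusted p = 0.207) and Nfil3 (1.07, adjusted p = 0.184) kept their direction and lost their calls.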

How the data were processed

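Bulk RNA was sequenced from 7 VMHvl samples (4 EB, 3 VEH). Per the labels' protocols, a Trio kit (Tecan, formerly NuGEN) was used on 15 ng of RNA a library. The deposited values are whole-number counts for each gene, not normalised by the authors. HISAT2, HTSeq, DESeq2 and mm10 are named in the submitters' processing notes. The sources used here give no version, annotation or strand setting. Totals were between 21037303 and 33302293 counts a library.

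Genes were kept by filterByExpr (minimum count 10), normalised with TMM and fitted in edgeR 4.0.16 (glmQLFit, robust, legacy = FALSE) in R 4.3.3, EB against VEH with no covariate, Benjamini-Hochberg adjusted over 18387 genes. SE is the absolute log2 change over the square root of F, and 95% intervals use the fit's degrees of freedom. Values are mean ± SD over mice. DESeq2 1.42.0, limma-voom (limma 3.58.1), sva 3.50.0 and other scalings, filters and libraries were alternatives. Exon lengths and positions are from GENCODE on GRCm38 (mm10). Exons of 13 of the 28 genes overlap a gene on the opposite strand, among them Dbp with Sphk2 (18.0% of its exon bases), Nr1d1 with Thra (8.55%), Bhlhe41 with Gm43909 (19.0%) and Cry2 with D930015M05Rik (4.67%), so reads there may be dropped or misassigned. Npas2, Nfil3, Clock and Rorb have no such overlap.

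The members and lists were chosen with earlier results of these data known. Genes described in full were those called, with an unadjusted p under 0.05, or with groups that did not overlap, plus the core loop genes. Of the accessory and output lists they were the called genes and the 3 of smallest p. No pair of replicates agreed within sampling noise (chi-square per degree of freedom 17.0 to 166).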

Additional observations from a re-analysis of the deposited data

Results flagged for a closer look

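A test for an isolated value in the 4 EB mice was run for 29 genes, and chance alone flags about 1 group in 20. Clock was flagged because EB 3 (295 CPM) stood apart from the other EB mice. Ciart was flagged because EB 2 (5.18 CPM) stood above the other EB mice, although VEH 2 was higher still at 5.67 CPM. Without EB 3 the log2 change of Clock was 0.15 (adjusted p = 0.4999, edgeR).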

How the results depend on the processing

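No paired analysis was possible because EB and VEH mice share no replicate number in the labels, and the mouse numbers used here are only names. Npas2, Nfil3, Cry2 and Rorb kept their direction under all 20 alternatives, of which Npas2 was called in 13 and Nfil3 in 12. Among the 20 is the main fit read at an adjusted p under 0.1, where direction and the Npas2 and Nfil3 calls could not change. The legacy quasi-likelihood fit was added after seeing the data. With 1 library left out, 0 to 3 clock genes were called higher and 0 lower, 0 to 1 output genes higher, 1 to 3 markers of other cell types, and 78 to 122 of all genes higher and 20 to 45 lower (137 and 38 with all libraries). DESeq2 called 1 clock gene lower, 1 accessory gene higher, 1 output gene lower, 4 other markers, and 234 higher and 125 lower of all genes. Without a filter on low counts the calls were 1 clock gene lower, 1 accessory gene higher and 1 lower, 2 output genes higher, 3 other markers, and 240 higher and 135 lower of all genes. Limma-voom called 0 clock and 0 output genes higher (adjusted p = 0.0661 for Npas2 and 0.0825 for Nfil3). The SCN score left 1 clock and 0 output genes higher, and 77 higher and 18 lower of all genes. Without VEH 1 and EB 4 there were 0 clock genes and 2 output genes higher and 2 other markers. All genes called lower numbered 64 at an adjusted p under 0.1, 69 with the mural score and 71 with 1 surrogate variable. The cause was not tested.

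Signs turned only in genes not called, with main estimates as far from 0 as -0.18 (Fbxl21) and -0.17 (Nr1d1). With the SCN score Nr1d1 was at 0.066, Rora at 0.077 and Fbxl21 at 0.12. Without VEH 1 and EB 4 Rora was at 0.060, Csnk1d at -0.044, Csnk1e at -0.018 and Noct at 0.018. Noct was at 0.014 with the mural score and 0.010 with 1 surrogate variable. With 1 library left out the log2 change ran from -0.13 to 0.11 for Per2, -0.084 to 0.19 for Arntl2, -0.090 to 0.021 for Tef, -0.011 to 0.45 for Ciart, -0.085 to 0.026 for Rora, -0.027 to 0.16 for Csnk1d, -0.0026 to 0.15 for Csnk1e, -0.31 to 0.089 for Fbxl21, -0.15 to 0.046 for Btrc and -0.054 to 0.042 for Noct. Timeless, at 20 to 107 counts a library, is the gene most limited by depth.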

Other observations

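Per kilobase of exon the most abundant clock gene was Csnk1d, at 25.8 ± 2.17 CPM per kb in EB mice and 25.1 ± 3.48 in VEH mice (SD). Fbxw11, Hlf, Tef and Nr1d2 were each between 18.9 and 22.8 CPM per kb on average in either group. The low end held Timeless (0.428 in EB mice and 0.275 in VEH mice), Arntl2 (1.14 in EB mice and 1.07 in VEH mice), Ciart, Dbp, Arntl and Per1, all under 3 CPM per kb in both groups. Nfil3 was under 3 in VEH mice (1.98) but not in EB mice (4.61). Cry2 stood 8th of 29 in EB mice and 12th in VEH mice, and Nfil3 stood 21st in EB mice and 26th in VEH mice.

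Variation between mice of 1 group differed across the list. The coefficient of variation had a median of 9.81% in EB mice and 11.9% in VEH mice over the 28 genes, lowest for Btrc in EB mice (2.93%) and Bhlhe40 in VEH mice (1.21%), and highest for Timeless (46.4% in EB mice and 63.8% in VEH mice). EB 4 had the highest level of 7 of the 28 genes and VEH 2 of another 7, while VEH 3 had the lowest level of 7. The ratio of Rorb to Rora counts in the same mouse was 0.962, 0.877, 1.05 and 1.13 in EB mice, against 1.19, 1.18 and 1.33 in VEH mice, so the groups did not overlap in it. The ratio of Per2 to Arntl counts was 1.23, 1.30, 1.06 and 1.77 in EB mice, against 1.47, 1.39 and 0.956 in VEH mice, with wide overlap.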
